A study of Mus musculus with 60 samples.

Results

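The early response of mouse erythroleukemia cells to HMBA was followed on the 8 arrays that measured 6 h and 12 h of treatment, out of 60 arrays in the series. The arrays were chosen by the labelled chemical and time alone, 4 for each time. The cells were HD-MEL, the high differentiation-inducible line T-3-Cl-2-0.fl, cultured with 5 mM HMBA (hexamethylene bisacetamide). The other treated groups used below were HMBA at 1, 24 and 36 h, and, at the same 5 times, 30 nM TSA (trichostatin A) and 1.5% DMSO (dimethyl sulfoxide). Every ratio set RNA after treatment against RNA of the same line before treatment, the baseline of all conditions. Whether that was 1 extract or several is not stated. No untreated culture of matched age was labelled, so time in culture and the chemical cannot be told apart. All RNA came from 1 cell line, and the labels call the 4 arrays of a condition technical replicates. In replicates 1 and 2 the treated RNA was labelled with the dye Cy5, and in replicates 3 and 4 with Cy3.

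Erythroleukemia cells are virus-transformed red cell precursors held at an immature stage. HMBA, a polar compound, releases them into terminal maturation, in which they make hemoglobin and stop dividing. In this model commitment to mature follows a latent period after the inducer is added, and the first hours are known for changes in regulators of proliferation, the Myb and Myc proto-oncogenes among them. The spots on these arrays were cDNA clones named by plate and well. None of the 22656 clone identifiers (0 matches) was paired with a gene in the files or the gene table used here, so no gene, pathway or cell type marker can be named, and the labelled cell type was not checked against its markers. No sequence is shown, because none was paired with these clones.

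Each of the 8 arrays listed between 17798 and 19307 clones, and 14582 clones, listed on at least 3 arrays of each of the 15 conditions, were analysed. Across clones, arrays of the same RNA and the same dye orientation correlated at r between 0.468 and 0.681 at 12 h and between 0.561 and 0.625 at 6 h. For opposite orientations, r lay between -0.0885 and 0.102 at 12 h and between -0.0204 and 0.297 at 6 h. On 16 of the 16 slides the dimmest spots were brighter in the channel labelled Cy3, and 8 of 8 arrays carried the labelled sign of the clone dye effect estimated from the other 13 conditions. Much of the disagreement between orientations was shared by clones of the same plate row. Of the variance of the difference between dye orientations, 51.4% at 12 h and 43.8% at 6 h lay between plate rows. These shares include differences between whole plates and between slides. With the median of each plate row removed from each array, the mean ratios of the orientations correlated at r = 0.238 at 12 h and r = 0.378 at 6 h, against -6.01e-05 at 12 h and 0.191 at 6 h without that step.

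A clone was counted as moved when its mean log2 ratio, after over before treatment, was at least 1 in size (a 2-fold change) and of the same sign in both dye orientations. At 12 h 183 clones had moved, 113 of them higher and 70 lower than before treatment, which is 1.25% of the clones analysed. At 6 h the number was 280, or 1.92%, with 139 higher and 141 lower. With technical arrays only, these counts have no replicate check. The dye swap gave the internal control: 198 clones at 12 h and 68 at 6 h passed the same size with opposite signs in the orientations and so followed the dye. At 12 h more clones followed the dye than moved, and 197 of the 198 appeared higher with the treated RNA in Cy3. That order turned without replicate 1 (194 moved and 154 followed the dye) and without replicate 3 (235 and 209). It also turned for clones listed on all 4 arrays of every condition (126 and 67), without clones below the median intensity (87 and 17), at the 0.5 limit (1060 and 993) and with the size passed on each array (98 and 75). With plate-row medians removed, 149 clones moved (74 higher and 75 lower) and 22 followed the dye at 12 h, and 255 moved and 3 followed the dye at 6 h.

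**Figure D1:**
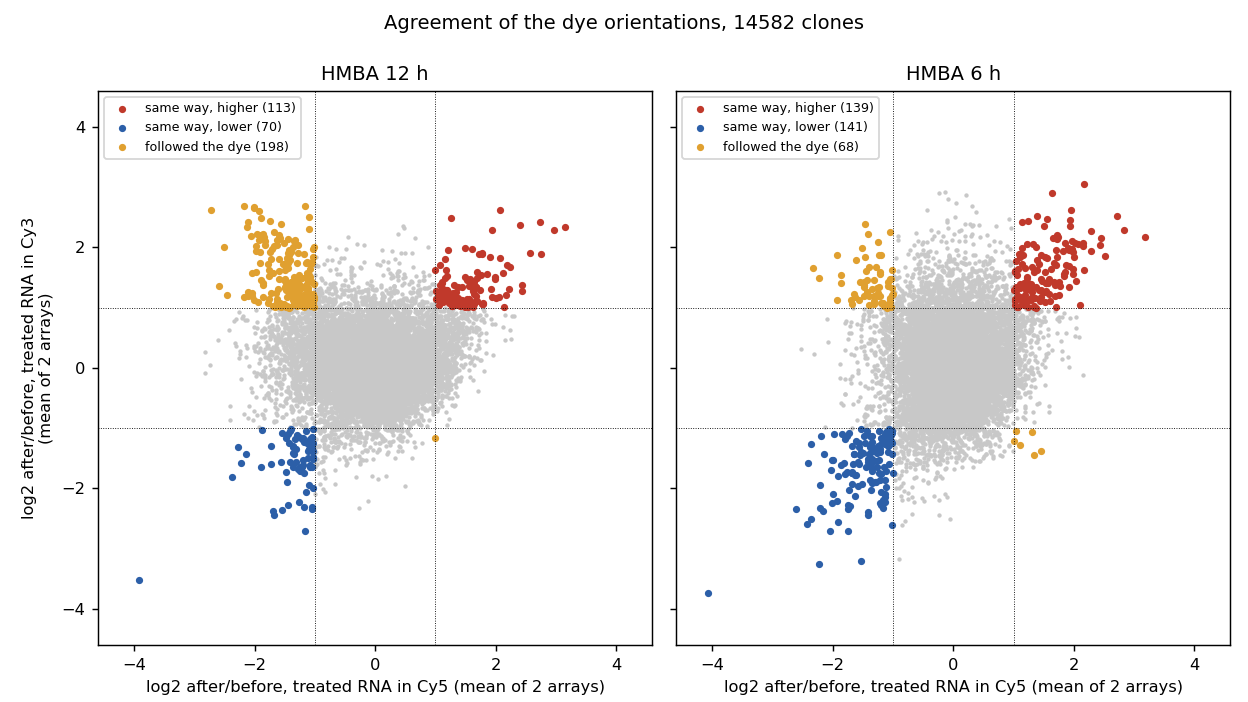
Log2 ratio after over before HMBA for 14582 clones, with the treated RNA in Cy5 on the horizontal and in Cy3 on the vertical axis, each the mean of 2 arrays, at 12 h (left) and 6 h (right). Red and blue points moved the same way by at least 1 log2 unit in both orientations (dotted lines), and orange points followed the dye, with 198 orange points at 12 h against 68 at 6 h.

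At both times together, 85 clones moved the same way in both orientations, 0.583% of the clones analysed. Of these, 45 were higher and 40 lower than before treatment. The number of clones that followed the dye in the same way at both times was 0, and 0 clones moved in opposite directions at the 2 times. The 85 clones made up 40 of the 70 clones lower at 12 h (57.1%) and 40 of the 141 lower at 6 h (28.4%). They made up 45 of the 113 clones higher at 12 h (39.8%) and 45 of the 139 higher at 6 h (32.4%). The smallest of the 4 orientation means was 1.002 for the clone nearest inside the size limit and 0.9996 for the clone nearest outside it. A further 34 clones lay within 0.1 log2 units below the limit and 23 of the 85 within 0.1 above it. A looser limit of 0.5 log2 units gave 510 clones, 276 higher and 234 lower (3.5% of the clones analysed), against 72 that followed the dye. By that limit 1060 clones (7.27%) moved at 12 h, 1280 (8.78%) at 6 h, and 781 (5.36%) shifted between the times, against 993, 748 and 1573 that followed the dye. The stricter demand that each listed array pass 1 log2 unit gave 44 clones, 28 higher and 16 lower. With arrays scaled to the same spread 29 clones passed, 20 higher and 9 lower.

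The 85 clones were spread around a similar size in both directions. The 45 higher clones had a median 6-12 h mean of 1.66 log2 units, a 3.16-fold increase, with a range of 1.18 to 2.65. The 40 lower clones had a median of -1.66, a 3.16-fold decrease, with a range of -3.81 to -1.21. Means of at least 2 in size were reached by 7 higher and 4 lower clones. The spread over the 4 technical arrays had a median SD of 0.38 at 12 h and 0.25 at 6 h in the higher clones, and of 0.48 and 0.40 in the lower clones, against 0.42 and 0.40 over all 14582 clones. The higher clones had median orientation means of 1.63 (Cy5) and 1.50 (Cy3) at 12 h, and of 1.74 and 1.85 at 6 h. The lower clones stood further from 0 with the treated RNA in Cy3, at -1.62 against -1.25 in Cy5 at 12 h, and at -1.80 against -1.44 at 6 h.

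The 6 h and 12 h values were also pooled as 1 group and tested across all clones against before treatment with limma, a linear model with moderated variances. The spread came from neighbouring times of each chemical, 6 and 12 h or 24 and 36 h, so it includes real change between those times. The model called 2852 clones at an adjusted p below 0.05, 19.6% of those tested, with 1486 higher (10.2%) and 1366 lower (9.37%). The median size of a called change was 0.57 log2 units, and a mean of at least 1 in size was reached by 201 of the higher and 163 of the lower ones. The 4 orientation means had the same sign in 1098 of the 1486 and in 1055 of the 1366, and each listed array had it in 728 and 619. Among the 85 clones, 45 of the 45 higher and 35 of the 40 lower ones were called; they were chosen on the same values, so this adds no support. The count was 978 after scaling arrays to 1 spread, and 1860 without replicate 2 and 1821 without replicate 4. The before-treatment RNA's own spread is left out of this test, and no p-value here covers repeated cultures.

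Among called clones with 1 sign on each listed array, the 2 with the highest and the 2 with the lowest 6-12 h means are described here, from the plates H3024, H3035 and H4079. Their intervals do not allow for this choice of extremes. Clone H3024C12 had log2 ratios of 3.61, 2.68, 2.22 and 2.47 on the arrays at 12 h and of 2.78, 2.88, 2.51 and 2.09 on those at 6 h. Its raw intensity after treatment lay between 2883 and 3244 at 12 h, against 321 to 569 before treatment on the same arrays. At 6 h it lay between 3648 and 5586 after treatment, against 842 to 1182 before it. The intensities did not overlap before and after treatment at either time, while the log2 ratios of 12 h and 6 h did. The 6-12 h mean was 2.65 (SE 0.15, 95% interval 2.32 to 2.99, limma adjusted p = 3.05e-05), a 6.29-fold rise.

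Clone H3024D01, from the well that follows H3024C12 in plate order, had log2 ratios of 1.93, 2.20, 2.25 and 2.99 at 12 h and of 2.68, 2.76, 2.41 and 2.62 at 6 h. Its intensity at 12 h was 2480 to 4389 after treatment, against 432 to 796 before treatment. The 12 h ratios reached both below and above those of 6 h, so the times overlapped. The 6-12 h mean was 2.48 (SE 0.12, 95% interval 2.22 to 2.74, limma adjusted p = 1.41e-05), a 5.59-fold rise. The wells on either side of this pair were also called, with 6-12 h means of 1.92 and 2.40 (adjusted p = 0.000169 and 0.000124, limma), which made a run of 4 wells across the end of 1 plate row. It is not known here if these wells hold cDNAs of 1 gene.

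Clone H3035B01 had the largest decrease. Its log2 ratios were -4.36, -3.46, -3.96 and -3.06 at 12 h and -3.83, -4.32 and -3.74 at 6 h, where 1 array did not list it. Intensity after treatment was 21.3, 128, 227 and 351 at 12 h, against 1468 to 2086 before treatment. At 6 h it was 135, 95.6 and 443 after treatment, against 3520 to 4875 before it. The 6-12 h mean was -3.81 (SE 0.12, 95% interval -4.08 to -3.54, limma adjusted p = 6.42e-07), a 14.0-fold fall. The files hold no background measure, so how far this spot lay above background after treatment is not known.

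Clone H4079C03 had log2 ratios of -0.99, -2.36, -2.27 and -2.61 at 12 h and of -2.37, -2.35, -2.45 and -2.56 at 6 h. Replicate 1 at 12 h lay well above the other arrays, and the rest of the 12 h values overlapped those of 6 h. Intensity at 12 h was 773 to 1818 after treatment, against 4213 to 6065 before treatment. The 6-12 h mean was -2.25 (SE 0.12, 95% interval -2.51 to -1.99, limma adjusted p = 2.49e-05), a 4.75-fold fall. The wells within 2 positions of H3035B01 and H4079C03 that could be tested had 6-12 h means between -0.23 and 0.48. The wells directly beside H3035B01 were not among the clones analysed.

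**Figure D2:**
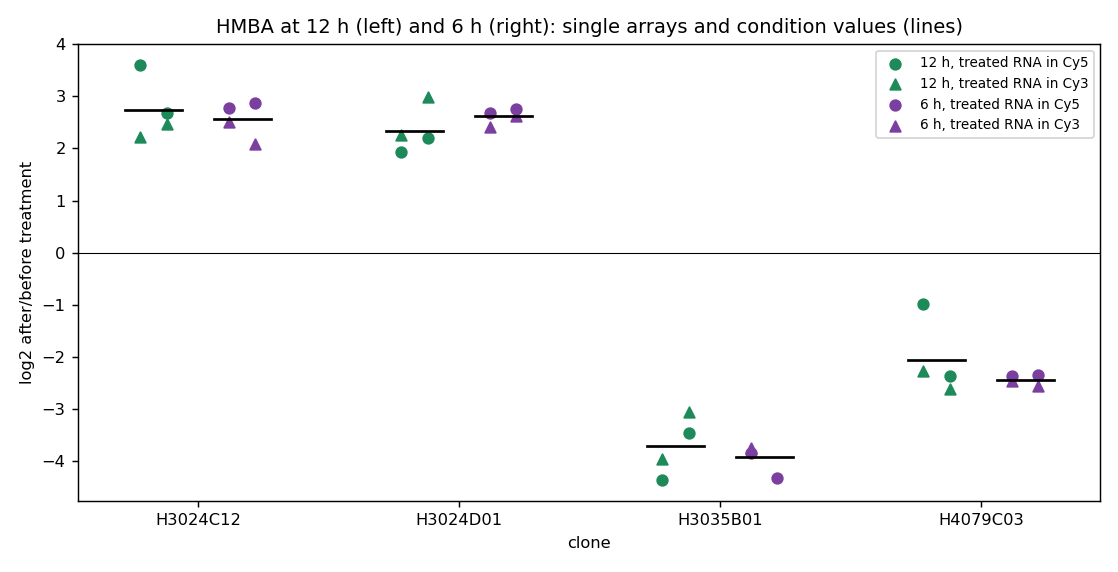
Log2 ratio after over before HMBA on each array for the 2 clones with the highest and the 2 with the lowest 6-12 h means, at 12 h (green, left) and 6 h (purple, right). Circles have the treated RNA in Cy5, triangles in Cy3, and lines mark the condition value; each clone stays on 1 side of 0 on every array that listed it, and replicate 1 of H4079C03 at 12 h, at -0.99, lies apart.

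The change from 6 h to 12 h was described by size, since each time had technical arrays only. Over all clones the 12 h value minus the 6 h value had a median of 0.020 log2 units and quartiles of -0.21 and 0.22. Among the 45 higher clones this difference had a median of 0.0079 and ranged from -0.85 to 0.71, with 23 clones higher and 22 lower at 12 h. Among the 40 lower clones the median was 0.18, with a range of -0.52 to 1.07, and 26 of the 40 were nearer to before treatment at 12 h. The 4 arrays of 12 h did not overlap those of 6 h in 11 of the 45 higher clones, 2 higher and 9 lower at 12 h, and in 4 of the 40 lower clones, 4 higher and 0 lower at 12 h. Over all clones 4.03% did not overlap, 2.71% higher and 1.32% lower at 12 h. A lack of overlap between technical arrays covers array error only.

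Clones that passed the size at 1 time mostly lay on the same side of 0 at the other. Both times are ratios to RNA before treatment, so an error in that baseline could put them on the same side. The counts that follow include the clones that passed at both times. Of the 139 clones higher at 6 h, the 12 h value was at least 1 in 66, between 0.5 and 1 in 44, between 0 and 0.5 in 25 and below 0 in 4. Of the 141 clones lower at 6 h, it was -1 or lower in 75, between -1 and -0.5 in 56, between -0.5 and 0 in 10 and above 0 in 0. Seen from 12 h, the 6 h value of the 113 higher clones was at least 1 in 66, between 0.5 and 1 in 34, between 0 and 0.5 in 11 and below 0 in 2. For the 70 lower clones these numbers were 52, 11, 6 and 1. A choice by size at 1 time favours values that are extreme there, so a smaller value at the other time need not be a decline.

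The 94 clones higher at 6 h only had median log2 ratios of 0.41, 1.44, 0.74, 0.66 and 0.56 at 1, 6, 12, 24 and 36 h of HMBA. The 68 clones higher at 12 h only had 0.17, 0.78, 1.31, 0.99 and 0.89. The 101 clones lower at 6 h only had -0.20, -1.45, -0.93, -0.62 and -0.44. The 30 clones lower at 12 h only had -0.089, -0.86, -1.29, -0.82 and -0.60. Each of these classes kept the sign of its median at 6, 12, 24 and 36 h. The sign at the time that defined a class was fixed by the choice. All times are ratios to RNA before treatment, so an error in that baseline could give each of them the same sign. Values at 1 h of HMBA carry less weight, since the pair of 1 h arrays with the treated RNA in Cy3 correlated at r = -0.322 and the direction there is not settled.

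A shift of at least 1 log2 unit between the times, the same way in both orientations, was found in 95 clones, 0.651% of those analysed. At 12 h 33 of them were higher and 62 lower than at 6 h. This split turned without replicate 2 (52 higher and 42 lower) and at the limit of 0.5 log2 units (454 and 327), and it was 80 and 86 without replicate 3 and 90 and 100 without the listing filter. The number that shifted with the dye was 305, over 3 times as many, so most shifts of this size were not shared by the orientations. The median of the 33 was 0.64 at 12 h and -0.66 at 6 h, and 23 of them lay on different sides of 0 at the 2 times. The median of the 62 was -0.27 at 12 h and 1.12 at 6 h, and 40 of them changed sides. At 24 and 36 h of HMBA the medians were 0.019 and -0.086 for the 33 clones and -0.12 and -0.27 for the 62. None of the 95 (0) was among the 85 clones moved at both times. With plate-row medians removed 48 clones shifted, 17 higher and 31 lower at 12 h, against 23 that followed the dye, and 26 of the 48 were among the 95. Of the variance of the 12 h minus 6 h difference, 30.1% lay between plate rows; the part of plate position in these shifts was not tested further.

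**Figure D3:**
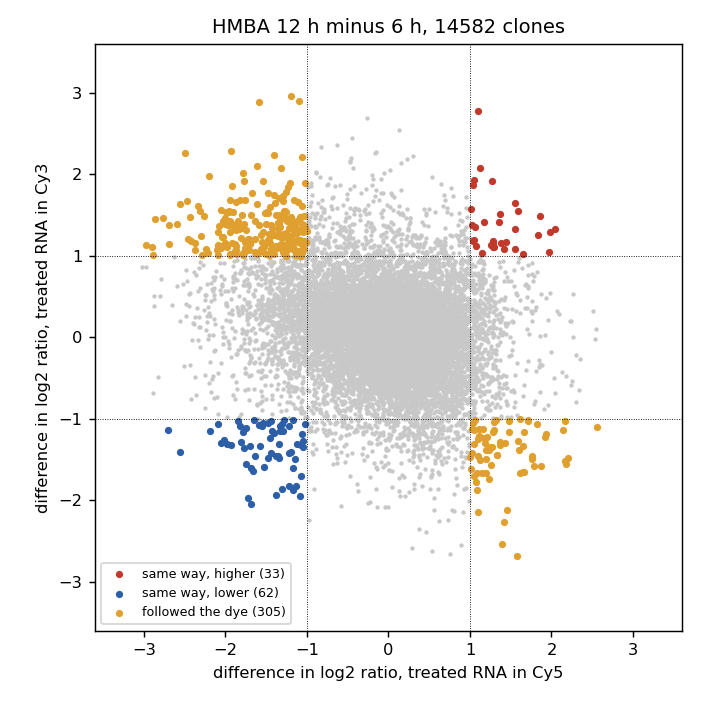
Difference in log2 ratio between 12 h and 6 h of HMBA for 14582 clones, with the treated RNA in Cy5 on the horizontal and in Cy3 on the vertical axis. The 33 red and 62 blue points shifted the same way by at least 1 log2 unit in both orientations, and the 305 orange points shifted with the dye.

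The ratios on the later HMBA arrays were not used to choose the 85 clones, though listing on those arrays was required. The 45 higher clones had medians of 0.40, 1.74, 1.61, 1.24 and 1.25 at 1, 6, 12, 24 and 36 h of HMBA, and at 24 h the lowest of them stood at 0.58. At 36 h the lowest of them stood at -0.17, with a lower quartile of 1.00. The 40 lower clones had medians of -0.22, -1.65, -1.44, -0.99 and -0.77, and at 24 h the highest of them stood at -0.18. At 36 h the lower clones ranged from -3.50 to 2.82, with quartiles of -1.37 and -0.17, so most of them stayed below 0. A small set at 2.64 to 2.82 stood apart, and the next highest lower clone was at 0.72. All of these values are ratios to RNA before treatment. HMBA at 24-36 h minus HMBA at 6-12 h had a median of -0.38 in the higher and 0.60 in the lower clones, against 0.028 over all clones. The clones were chosen for large values at 6 and 12 h, which are subtracted here, so the choice alone favours medians of these signs. In the limma fit 0 of the 85 clones were called in this difference, with 0.00686% of all clones called (1 clone) and 2044 clones past an unadjusted 0.05. The largest difference among the 85 was 2.85, against 1.88 in the 1 clone called. It was that of a lower clone at -0.18 at 24 h and 2.73 at 36 h. The fit counts change from 24 to 36 h as spread, so a late riser can miss a call. The small set apart at 36 h was also not called against before treatment (limma adjusted p = 0.0896 to 0.134). The 95% interval of the later difference had a median half-width of 0.41 log2 units, unadjusted for the number of clones.

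The 1 clone called was H4040B02, named here after its values were seen. It stood at 1.22 ± 0.22 at 36 h and 0.84 ± 0.37 at 24 h (SD, n = 4 technical arrays), against -0.97 ± 0.70 at 12 h and -0.73 ± 0.48 at 6 h. Its difference of 1.88 (SE 0.17, 95% interval 1.49 to 2.26, limma adjusted p = 0.0132) was a change of the mean from below to above the level before treatment. Replicate 3 at 12 h stood at 0.030, so its single arrays were not all below 0. Over the 6 h and 12 h arrays its raw intensity was 154 to 826 after treatment, against 443 to 1025 before it, so the 2 overlapped. No clone was called (0, limma) without replicate 2, with 1484 at an unadjusted p under 0.05, or with plate-row medians removed, with 1929. Of 16 alternatives that tested H4040B02, 6 lost its call, with differences of 1.21 to 2.13 over the 16.

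The same clones were set beside the other chemicals at the matched times. The 45 higher clones had medians of 1.61 with HMBA, 0.54 with TSA and 0.89 with DMSO at 12 h, and of 1.74, 1.15 and 0.99 at 6 h. The 40 lower clones had medians of -1.44 with HMBA, -0.87 with TSA and -1.01 with DMSO at 12 h, and of -1.65, -0.78 and -0.84 at 6 h. The clones were chosen for large HMBA values and all ratios are to RNA before treatment, so a smaller median with another chemical is no finding by itself. With TSA the lower clones spread widely at 24 h, with quartiles of -1.18 and 1.00 and a highest value of 3.71.

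**Figure D4:**
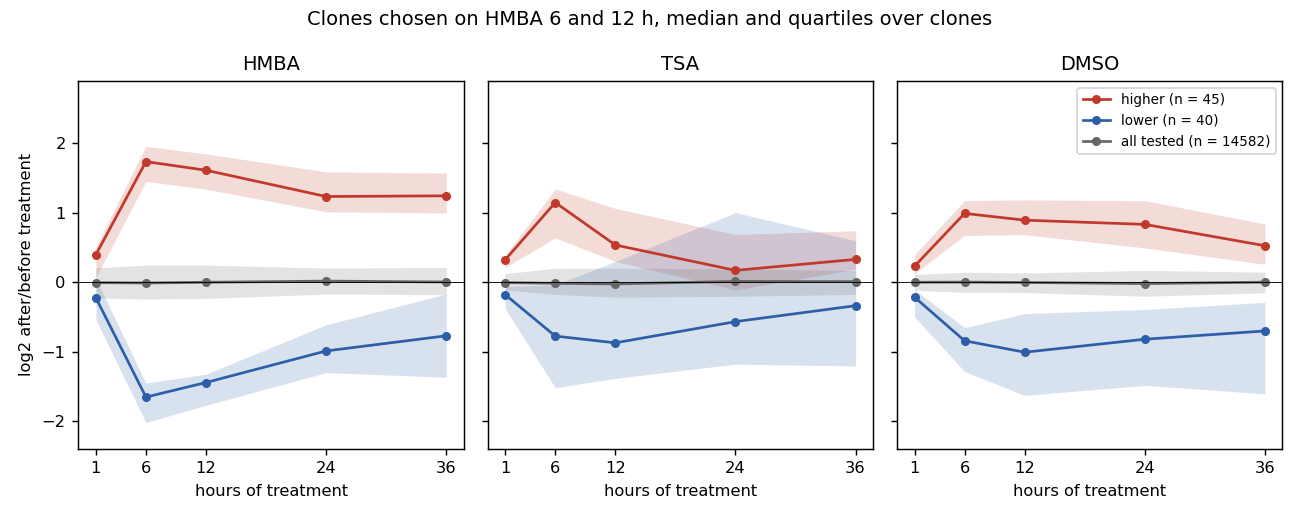
Median log2 ratio after over before treatment (lines) and quartiles over clones (bands) at 1, 6, 12, 24 and 36 h for the 45 clones higher and the 40 clones lower at 6 and 12 h of HMBA, and for all 14582 clones, with HMBA, TSA and DMSO. The clones were chosen on the HMBA values at 6 and 12 h, where the medians are 1.74 and 1.61 for the higher and -1.65 and -1.44 for the lower clones.

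Differences between chemicals over 6-12 h were tested in the same limma fit. HMBA and DMSO differed for 18 clones, 0.123% of those tested, 16 higher (0.11%) and 2 lower (0.0137%) with HMBA. The 16 had medians of 1.30 with HMBA and -0.17 with DMSO at 12 h, and of 1.02 and -0.24 at 6 h. The 2 lower clones were at -2.75 with HMBA and -1.32 with DMSO at 12 h (medians), so they were below before treatment with both. Of the 85 clones, 2 of the 45 were called higher and 2 of the 40 lower with HMBA. The 85 were chosen on their HMBA values, which enter this difference, so the choice favours such calls. DMSO arrays carried plates H3121 to H3159 on another slide than HMBA arrays. Of the 16 higher clones called here 0 came from those plates, and of the 2 lower ones 0. The slide layout and DMSO cannot be told apart. The split was 27 higher and 13 lower with plate-row medians removed, and 14 and 4 with the deposited ratios. The count was 4 with only the 8 conditions of the comparisons in the fit, and 0 with the treated RNA in Cy5 only, where 2147 clones had an unadjusted p under 0.05.

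HMBA and TSA differed for 111 clones, 0.761% of those tested, 72 higher (0.494%) and 39 lower (0.267%) with HMBA. The 72 had medians of 0.84 with HMBA and -0.40 with TSA at 12 h, and of 0.78 and -0.23 at 6 h. The 39 had medians of -0.70 with HMBA and 0.46 with TSA at 12 h, and of -0.80 and 0.48 at 6 h. Of the 85 clones, 7 of the 45 were called higher and 7 of the 40 lower with HMBA. Here too the choice on HMBA values favours such calls. The count was 27 without replicate 2, 53 without replicate 4 and 0 without the DMSO conditions, where limma had 1861 clones at an unadjusted p under 0.05 and fewer residual degrees of freedom.

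Clones H3024C12 and H3024D01 were called higher with HMBA than with either other chemical, calls that some alternatives lost. They, H3035B01 and H4079C03 were picked for extreme HMBA means, which enter these differences. The choice alone favours differences of the same sign as those means. H3024C12 stood at 2.75 ± 0.60 with HMBA at 12 h (SD, n = 4 technical arrays), against 0.95 ± 0.24 with TSA and 1.31 ± 0.25 with DMSO. Over 6-12 h HMBA exceeded TSA by 1.84 (SE 0.21, limma adjusted p = 0.0156) and DMSO by 1.52 (SE 0.21, adjusted p = 0.0301). The call against DMSO was lost without replicate 2, 3 or 4 (limma adjusted p = 0.0537, 0.0631 and 0.056), and with scaled arrays the difference was 0.64 (adjusted p = 0.208). For H3024D01 the differences were 1.77 from TSA (SE 0.16, limma adjusted p = 0.0156) and 1.32 from DMSO (SE 0.16, adjusted p = 0.019). The call against DMSO was lost without replicate 2 or 4 (limma adjusted p = 0.0578 and 0.056), and with scaled arrays the differences were 0.50 from DMSO (adjusted p = 0.361) and 1.23 from TSA (adjusted p = 0.0534). For both clones the calls against both chemicals were lost with Cy5 only, those against TSA without the DMSO conditions (limma adjusted p = 0.0764), and those against DMSO with only the 8 conditions compared in the fit. H3035B01 was lower with HMBA than with DMSO, with a difference of -1.78 (SE 0.17, limma adjusted p = 0.00676) and -0.49 with scaled arrays (adjusted p = 0.394). This call too was lost with Cy5 only (limma adjusted p = 0.0598). The difference from TSA was -0.52 (95% interval -0.90 to -0.14, adjusted p = 0.2). H4079C03 had a difference from DMSO of -0.0098, with a 95% interval of -0.38 to 0.36 and a limma adjusted p of 0.983. Its difference from TSA was -0.47 (95% interval -0.84 to -0.099, limma adjusted p = 0.231).

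The 85 clones were unevenly spread over the plates. They came from 62 of the 238 plates, and 51 of these plates held 1 of them. The plates H3021, H3023 and H3024, singled out after their counts were seen, held 16 of the 45 higher clones (35.6%) and 0 of the 40 lower ones, in 9 plate rows, while they held 215 clones or 1.47% of those analysed. Over all clones of these 3 plates the median was 0.23 at 12 h and 0.056 at 6 h. With plate-row medians removed 71 clones moved the same way at both times, 31 higher and 40 lower, and 46 of them were among the 85. Found again were 25 of the 40 lower and 21 of the 45 higher clones. The 21 were 7 of the 16 higher clones on these 3 plates and 14 of the 29 elsewhere. The medians after that step were 1.36 at 12 h and 1.64 at 6 h for the 45, and -1.41 and -1.51 for the 40. The clones on a plate can share a gene as well as a place on the slide, and the part of either in this clustering was not tested.

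**Figure D5:**
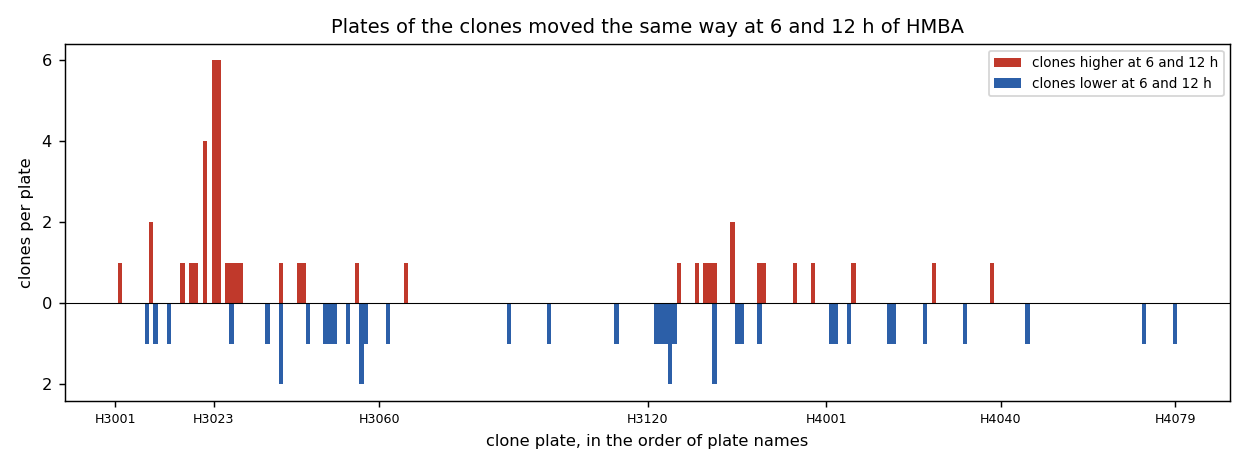
Number of clones per plate among the 45 higher (red, above 0) and the 40 lower (blue, below 0) at 6 and 12 h of HMBA, with the 238 plates in the order of their names. The plates H3023 and H3024 hold 6 higher clones each and H3021 holds 4, and the lower clones number at most 2 on a plate.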

How the data were processed

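Expression was measured on 2-colour cDNA arrays of 2 slides each. The deposited spot files give a linear intensity for each spot, 1 column before and 1 after treatment, per the file headers. The sources used here do not say how the authors scanned, flagged or background-corrected spots. The authors also deposited 1 linear ratio per clone and array, after over before treatment, whose centring method is not given; its log2 correlated with the values used here at r between 0.983 and 0.995 on the 8 arrays.

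With limma 3.58.1 (R 4.3.3), normexp with an offset of 50 corrected the intensities, and loess with a span of 0.3 then normalized every slide on its own. Clones listed on at least 3 of 4 arrays in every condition were kept, since the files hold no background measure. Each condition gave 1 value, the average of its Cy5 and Cy3 orientation means. A dye effect cancels in it only where it is of the same size in both orientations. Of the variance of these values, 18.8% at 12 h and 10.6% at 6 h of HMBA lay between plate rows. The limma fit had 9 group means (each chemical at 1, 6-12 and 24-36 h) over 15 condition values, with 6 residual degrees of freedom and Benjamini-Hochberg adjustment over all clones. The fit was tested on simulated data. The number of conditions limits the precision.

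The arrays described, the tests and the lists were chosen with earlier results of these data known. Among called clones with 1 sign on each listed array, those named are the 2 highest and the 2 lowest by 6-12 h mean. Planned gene lists could not be used without gene names. Clones are not independent of each other, as several can represent a gene.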

Additional observations from a re-analysis of the deposited data

Results flagged for a closer look

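Tested differences between chemicals or times were found for HMBA against the other groups. HMBA and DMSO differed over 6-12 h for 18 clones, HMBA and TSA for 111, and HMBA at 24-36 h differed from HMBA at 6-12 h for 1 clone. Clone H3024C12 was higher with HMBA than with DMSO by 1.52 and than with TSA by 1.84 log2 units, and H3024D01 by 1.32 and 1.77. H3035B01 had a difference of -1.78 between HMBA and DMSO. These clones were named for extreme HMBA means, so the choice alone favours differences of these signs. The calls against DMSO were lost in 6 of 16 alternatives for H3024C12, 5 of 16 for H3024D01 and 2 of 14 for H3035B01, and those against TSA in 2 of 17 for H3024C12 and 3 of 17 for H3024D01. Among 15 sets of 4 technical arrays examined for a single distant array, 0 exceeded Dixon's critical value.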

How the results depend on the processing

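The 4 named clones kept their sign and an adjusted p below 0.05 against before treatment under each alternative that tested them (16 to 18 per clone), with 6-12 h means of 2.04 to 2.99 for H3024C12, 1.94 to 2.60 for H3024D01, -3.99 to -3.03 for H3035B01 and -2.48 to -1.77 for H4079C03. They were chosen by that call and sign on the same arrays, so this adds no support. Of differences without a call, that of H4079C03 from DMSO was 0.062 without background correction, 0.028 with median centring, 1.01 with scaled arrays, 0.052 with deposited ratios, 0.41 with Cy5 only and -0.14 to 0.12 leaving out 1 replicate, and that of H3035B01 from TSA was 0.19 with scaled arrays. Counts follow in the order calls against before treatment, HMBA minus DMSO, HMBA minus TSA, HMBA 24-36 h minus 6-12 h. The array fit with the replicate block gave 4402, 767, 1045 and 644; its consensus correlation within a condition was -0.0182, so it counted technical arrays as nearly independent. The labels tie replicate numbers to no shared batch. Same-numbered deviations at 12 h and 6 h correlated between 0.054 and 0.377, and 3 of 4 arrays matched their own number best. These deviations contain the dye effect, which arrays of the same dye orientation share, so they cannot single out the number. Within a dye orientation r was -0.070 for replicates 1 and 2 and 0.217 for replicates 3 and 4. These signs differ, so a link between same-numbered arrays is not settled. Leaving out 1 replicate gave 1821 to 2584, 11 (without replicate 4) to 17, 27 to 97 and 0 to 2 (2 without replicate 4). HMBA minus DMSO, HMBA minus TSA and the later difference gave 40, 292 and 0 with plate-row medians removed, 61, 175 and 2 for clones listed on all 4 arrays, 133, 179 and 18 without clones below the median intensity, 4, 38 and 0 with only the 8 conditions compared, and 0, 0 and 0 with the treated RNA in Cy5 only (2147, 1660 and 1228 at an unadjusted limma p under 0.05). With Cy3 only, HMBA minus DMSO gave 101 and the later difference 0 (limma, 2399 unadjusted). HMBA minus TSA gave 44 without the listing filter and 26 with arrays scaled to the same spread, where 978 clones were called against before treatment. Without the DMSO conditions, an alternative chosen after seeing the data, it gave 0 and the later difference 0 (limma, 1861 and 1752 unadjusted). The later difference with only 8 conditions had 1959 unadjusted. HMBA minus DMSO was 14 higher and 4 lower with the deposited ratios.

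Counts by size follow in the order both times, 12 h, 6 h, shifted. Scaled arrays gave 29 (20 higher and 9 lower), 64 (47 and 17), 142 and 18. A limit of 0.5 gave 510, 1060, 1280 and 781, and a limit passed on each array 44, 98, 179 and 29. Without clones below the median intensity 87 moved at 12 h, 165 at 6 h and 16 shifted. Shifted clones numbered 58 without background correction, 58 with deposited ratios, 48 with plate-row medians removed, 32 for clones listed on all 4 arrays and 190 without the listing filter. With plate-row medians removed the 12 h split was 74 higher and 75 lower. Leaving out 1 replicate gave 74 to 87, 177 to 235, 262 to 326 and 92 to 166, the last without replicate 3. Plate columns 2 to 11 alone, also chosen after seeing the data, gave 62, 150, 226 and 83. Where counts changed, the cause was not tested, except that fits with fewer conditions have fewer degrees of freedom. With no background measure, dim spots limit what can be said of large decreases.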

Other observations

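The clones higher at both times of HMBA had a median intensity of 4407 after treatment, against 1286 before it. The clones lower at both times had 331 after treatment, against 1291 before it. Over all clones the medians were 763 after and 836 before treatment. The higher and lower clones thus began at similar intensities, and 28 of the 45 and 23 of the 40 lay above the median of all clones before treatment. Intensity depends on the length and labelling of a spotted cDNA, so these medians describe spots and do not rank transcripts.

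The outer plate columns 1 and 12 held 23 of the 85 clones (27.1%) and 16.9% of all clones. Among the 85 clones, 6 pairs lay in wells that follow each other in plate order, and in 6 of these pairs both moved the same way. All of these pairs came from 2 runs of wells, on plates H3023 and H3024, which together held 8 clones. They are therefore not 6 separate observations. The longest run was 4 wells. The plates of the H4 series held 13 of the 85 (15.3%) and 34.7% of all clones. They held 3 of the 45 higher clones (6.67%) and 10 of the 40 lower ones (25%). The part of plate position in the choice of these clones was not tested.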
